A study of Mus musculus with 8 samples.

Results

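The genes described here are 7 genes of cholesterol synthesis and of the response to sterols, Hmgcs1, Sqle, Lss, Cyp51, Dhcr7, Sc5d and Insig1, measured by RNA sequencing in mouse nephron progenitors. They were chosen by symbol, and they are 7 of the 24539 genes in the deposited table. All 7 passed the filter on low counts, which 13459 genes passed. The cells were sorted from kidneys of E18.5 embryos, and there were 4 genotype groups of 2 libraries. All embryos carried Six2GFPcre, which drives Cre fused to GFP in Six2-expressing nephron progenitors, marks the cells for sorting and limits recombination to them and their progeny. The group labelled KO was Smo c/c, with 2 conditional alleles of Smo. The group labelled Het was Smo c/+, with 1 conditional and 1 wild-type allele. The group labelled WT was Smo +/+. The group labelled SmoM2 was also Smo +/+ and carried Rosa26 SmoM2/+, which makes an active form of Smo where Cre is present. The labels do not say whether the libraries of a group came from separate embryos or litters, so p-values measure only the spread between these libraries. The WT- and SmoM2-labelled groups each held a male and a female library by Xist and Y-linked counts, so these came from different embryos. Within the KO- and Het-labelled groups the spread may be technical.

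Cholesterol is made from acetyl-CoA through mevalonate, squalene and lanosterol, and a last series of enzymes turns lanosterol into cholesterol. When sterols in the endoplasmic reticulum are low, the transcription factor SREBP2 is carried to the Golgi by Scap, cut and released, and it raises transcription of the synthesis enzymes and of genes for uptake. Insig1 holds Scap back when sterols are plentiful. The nuclear receptors LXR are activated by oxysterols and by some intermediates of synthesis, and they raise transcription of genes for cholesterol export. Sterols also bind Smo, the transducer of Hedgehog signals in the membrane, and cholesterol is needed for its activity.

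The promoters of the genes on which the results turn are shown first, because the known control of these genes acts there. RefSeq promoter windows of build GRCm38.p6 were matched for 6 of the 7 genes, and each holds 300 bases around a transcription start. The motifs searched on both strands were the sterol regulatory element of SREBP, TCACNCCAC; the box read by the factor NF-Y that works with SREBP, CCAAT; and a direct repeat of the kind bound by LXR, GGTTA and GGTCA with any 5 bases between them. No match overlapped another in the windows named here. Among 32851 promoter windows of this length, 1.24% held the sterol element, 37.4% the CCAAT box and 0.0487% the direct repeat. The stretches below are the 250 bases before the start, 5′ to 3′ on the gene's strand, with matches in capitals. Hmgcs1 is shown as the gene that was highest in the KO-labelled libraries, Dhcr7 as the gene that was highest in the Het-labelled ones, Lss as a gene with no call, and Abca1 as the LXR target with the largest change among the sterol genes named here.
Hmgcs1, chr13:119690101-119690350, plus strand: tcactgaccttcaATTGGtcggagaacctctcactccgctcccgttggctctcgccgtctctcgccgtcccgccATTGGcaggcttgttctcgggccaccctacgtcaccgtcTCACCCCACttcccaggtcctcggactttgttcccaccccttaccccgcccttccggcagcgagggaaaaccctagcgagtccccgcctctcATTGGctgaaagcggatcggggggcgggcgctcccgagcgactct
Dhcr7, chr7:143829964-143830213, plus strand: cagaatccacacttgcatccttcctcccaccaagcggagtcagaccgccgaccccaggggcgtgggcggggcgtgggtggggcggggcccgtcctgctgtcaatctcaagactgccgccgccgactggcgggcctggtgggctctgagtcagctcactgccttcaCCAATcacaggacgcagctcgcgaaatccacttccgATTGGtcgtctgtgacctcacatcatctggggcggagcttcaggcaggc
Lss, chr10:76531355-76531604, plus strand: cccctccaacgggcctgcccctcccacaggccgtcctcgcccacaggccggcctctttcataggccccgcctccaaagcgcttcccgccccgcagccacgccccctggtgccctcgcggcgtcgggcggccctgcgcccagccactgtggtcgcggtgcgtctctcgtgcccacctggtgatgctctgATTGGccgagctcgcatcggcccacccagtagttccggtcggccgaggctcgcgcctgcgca
Abca1, chr4:53159896-53160145, minus strand: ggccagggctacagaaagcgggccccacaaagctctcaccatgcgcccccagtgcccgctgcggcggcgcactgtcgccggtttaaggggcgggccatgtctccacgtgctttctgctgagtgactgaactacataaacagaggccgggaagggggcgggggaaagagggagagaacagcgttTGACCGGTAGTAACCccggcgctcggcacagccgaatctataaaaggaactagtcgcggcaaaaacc
The Hmgcs1 stretch holds 1 sterol element, TCACCCCAC, which begins 137 bases before the start, and 3 CCAAT boxes. Hmgcs1 was the only member with a match to the sterol element among the 6 with a window, and Sqle had no window. Only the exact letters given above were searched, so a window without a match may still hold a variant of the element. Dhcr7 has 3 windows, and the third is shown because it alone held a match, with 2 CCAAT boxes. The windows of Lss, Cyp51, Sc5d and Insig1 each held 1 CCAAT box. The Abca1 stretch holds 1 direct repeat on the opposite strand, 67 bases before the start. Only 1 form of the repeat was searched, so this match depends on the letters chosen. The share of all windows with these letters therefore does not measure how unusual the match is. A match is a description of letters and was not tested as a site.

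The listed counts summed to between 4422305 and 4442697 with the KO label, 5929770 and 7577590 with the Het label, 9396539 and 10305398 with the WT label and 9037109 and 9929956 with the SmoM2 label, so the KO-labelled libraries were the shallowest. Smo, which checks the labels, lay at 13.1 and 11.1 CPM with the KO label, 14.4 and 23.9 CPM with the Het label, 363 and 375 CPM with the WT label and 605 and 629 CPM with the SmoM2 label. CPM express a gene's counts relative to the scaled size of its library. The Het-labelled level goes against a label with 1 wild-type allele, so every group is named by its label. Both KO-labelled libraries were from male embryos and both Het-labelled libraries from female embryos by Xist and Y-linked counts, while the WT and SmoM2 labels each held a male replicate 1 and a female replicate 2. Sex and group therefore cannot be told apart between KO- and Het-labelled libraries. All 7 nephron progenitor markers, Six2 among them, were detected, and their summed level was 2970 to 3541 CPM with the KO label, 3470 to 4129 with the Het label, 2421 to 2732 with the WT label and 2499 to 2613 with the SmoM2 label. Of these 7 markers, 3 were called higher in KO-labelled and 4 in Het-labelled than in WT-labelled libraries, against 11.6% and 13.1% of all tested genes. In bulk samples a smaller share of cells of a type and less RNA per cell cannot be told apart.

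Of the 7 genes, Hmgcs1 and Sqle were higher in KO-labelled than in WT-labelled libraries, and Dhcr7 was higher in Het-labelled than in WT-labelled libraries. None of the 7 passed the test between SmoM2- and WT-labelled libraries. Lss, Cyp51, Sc5d and Insig1 passed in none of the 6 pairwise comparisons. All adjusted p-values below are from edgeR's quasi-likelihood test with Benjamini-Hochberg adjustment over 13459 genes, two-sided, with a threshold of 0.05.

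**Figure D1:**
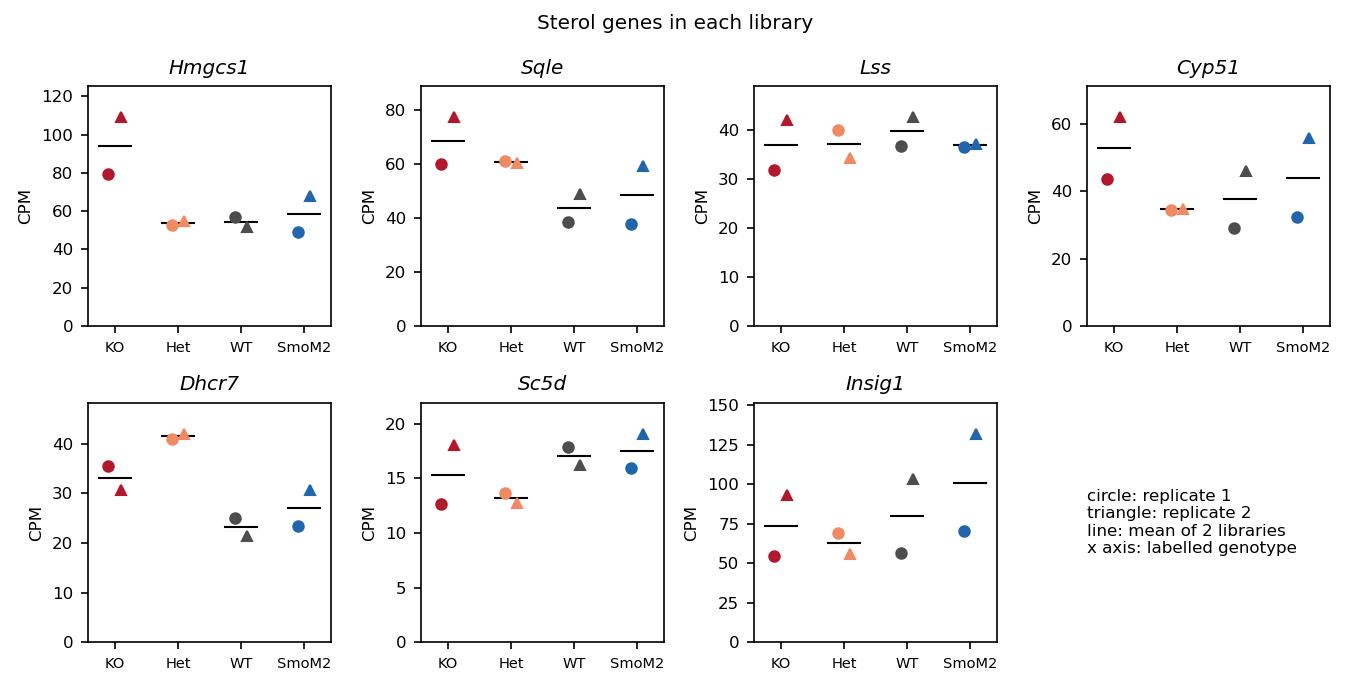
Level of the 7 genes in each library, in CPM on linear axes from 0, by labelled genotype. Circles are replicate 1, triangles replicate 2 and lines the mean of 2 libraries. Hmgcs1 is highest in both KO-labelled libraries (79.3 and 109 CPM) and Dhcr7 in both Het-labelled ones (40.9 and 42.0 CPM).

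Hmgcs1 (Ensembl gene on chromosome 13, 119690379 to 119708260, plus strand, GRCm38) encodes the cytosolic HMG-CoA synthase, which acts early in the mevalonate part of the pathway. Its level was 79.3 and 109 CPM with the KO label, 52.7 and 55.0 CPM with the Het label, 56.9 and 51.6 CPM with the WT label and 48.9 and 68.1 CPM with the SmoM2 label. Both KO-labelled libraries lay above all 6 others, and the other 3 groups overlapped. The group means were 94.2 ± 21.1, 53.8 ± 1.67, 54.2 ± 3.70 and 58.5 ± 13.6 CPM (SD, n = 2). The KO-labelled level was 1.74-fold the WT-labelled level, a log2 change of 0.80 (SE 0.18, 95% interval 0.39 to 1.20, adjusted p = 0.0113 in edgeR). Against Het-labelled libraries the log2 change was 0.81 (SE 0.19, adjusted p = 0.0250 in edgeR), and against SmoM2-labelled libraries it was 0.69 (SE 0.18, adjusted p = 0.0150 in edgeR). Each of these 3 changes was no longer called on leaving out some single libraries. Leaving out a library of a pair also lowered the number of all genes called, except between SmoM2- and WT-labelled libraries. Without KO replicate 2 the 3 changes were 0.54, 0.55 and 0.43, with adjusted p = 0.0820, 0.131 and 0.129 in edgeR. The change against WT was also lost without WT replicate 2 (log2 0.70, adjusted p = 0.0630 in edgeR), that against Het without Het replicate 1 (0.77, adjusted p = 0.158) or Het replicate 2 (0.82, adjusted p = 0.102), and that against SmoM2 without SmoM2 replicate 1 (0.42, adjusted p = 0.155).

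Sqle (chromosome 15, 59315077 to 59331192, plus strand) encodes squalene epoxidase, which begins the sterol-specific part of the pathway. Its level was 60.0 and 77.3 CPM with the KO label, 61.1 and 60.5 CPM with the Het label, 38.3 and 49.0 CPM with the WT label and 37.7 and 59.3 CPM with the SmoM2 label. All 4 KO- and Het-labelled libraries lay above all 4 others. SmoM2 replicate 2 came within 1 CPM of the lowest KO-labelled library. Against WT-labelled libraries the KO-labelled change was 0.65 on the log2 scale (SE 0.21, 95% interval 0.19 to 1.12, adjusted p = 0.0436 in edgeR) and the Het-labelled change was 0.48 (SE 0.21, adjusted p = 0.112). Only the first passed, and the KO- and Het-labelled libraries themselves differed by 0.18 (95% interval -0.29 to 0.64, adjusted p = 0.630). The call was close to the threshold. It was lost with relative log expression scaling (adjusted p = 0.0512), with counts thinned to the smallest library (0.0628), with length trends removed (0.0900), and without KO replicate 1 (0.0663), KO replicate 2 (log2 0.45, adjusted p = 0.238), Het replicate 1 (0.0738), Het replicate 2 (0.0732) or WT replicate 1 (log2 0.48, adjusted p = 0.204).

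Lss (chromosome 10, 76531588 to 76557138, plus strand) encodes lanosterol synthase, which makes lanosterol, the first sterol of the pathway. Its level was 31.9 and 42.0 CPM with the KO label, 40.0 and 34.3 CPM with the Het label, 36.8 and 42.6 CPM with the WT label and 36.6 and 37.2 CPM with the SmoM2 label. The 4 groups overlapped throughout. Its change against WT was -0.10, -0.09 and -0.10 on the log2 scale in the KO-, Het- and SmoM2-labelled groups. The widest of the 3 intervals ran from -0.47 to 0.27, so a change of the size seen in Hmgcs1 lies outside it. In the test over the 4 groups Lss had the highest adjusted p of the 7 (0.915 in edgeR).

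Cyp51 (chromosome 5, 4081145 to 4104746, minus strand) encodes lanosterol demethylase. Its level was 43.6 and 62.0 CPM with the KO label, 34.6 and 34.6 CPM with the Het label, 29.2 and 46.1 CPM with the WT label and 32.3 and 55.9 CPM with the SmoM2 label. Replicate 2 was well above replicate 1 in 3 groups and level with it in the Het-labelled one, and the KO-labelled range overlapped the WT-labelled and SmoM2-labelled ranges. The KO-labelled change against WT was 0.49 on the log2 scale (95% interval -0.10 to 1.09, adjusted p = 0.211 in edgeR). With embryo sex as a covariate it was 0.89 with adjusted p = 0.0077. In that fit the sex term is set by the WT- and SmoM2-labelled groups alone, where sex and replicate number cannot be told apart.

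Dhcr7 (chromosome 7, 143823145 to 143848410, plus strand) encodes the reductase that makes cholesterol from 7-dehydrocholesterol. Its level was 35.4 and 30.7 CPM with the KO label, 40.9 and 42.0 CPM with the Het label, 25.1 and 21.5 CPM with the WT label and 23.3 and 30.7 CPM with the SmoM2 label. Both Het-labelled libraries lay above all 6 others, and both KO-labelled libraries lay above both WT-labelled ones. The group means were 33.1 ± 3.35, 41.4 ± 0.742, 23.3 ± 2.56 and 27.0 ± 5.25 CPM (SD, n = 2). The Het-labelled level was 1.78-fold the WT-labelled level, a log2 change of 0.83 (SE 0.18, 95% interval 0.45 to 1.21, adjusted p = 0.0068 in edgeR), and no alternative or left-out library ended this call. Against SmoM2-labelled libraries the Het-labelled change was 0.62 (SE 0.17, adjusted p = 0.0185 in edgeR). That call was lost without Het replicate 1 (0.59, adjusted p = 0.0945), Het replicate 2 (0.57, adjusted p = 0.108) or SmoM2 replicate 1 (0.39, adjusted p = 0.170). The KO-labelled change against WT was 0.50 (adjusted p = 0.0647), and KO- and Het-labelled libraries differed by -0.33 (95% interval -0.72 to 0.07, adjusted p = 0.269).

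Sc5d (chromosome 9, 42251595 to 42264256, minus strand) encodes the desaturase that makes 7-dehydrocholesterol, the substrate of Dhcr7. Its level was 12.6 and 18.1 CPM with the KO label, 13.6 and 12.7 CPM with the Het label, 17.9 and 16.2 CPM with the WT label and 16.0 and 19.1 CPM with the SmoM2 label. Sc5d and Dhcr7 catalyse successive steps, and their order over groups differed: the Het-labelled mean was the highest of 4 for Dhcr7 and the lowest of 4 for Sc5d. The Het-labelled change of Sc5d against WT was -0.37 on the log2 scale (95% interval -0.85 to 0.11, adjusted p = 0.235 in edgeR), although the libraries of these groups did not overlap.

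Insig1 (chromosome 5, 28071363 to 28078662, plus strand) encodes the sterol-sensing anchor that retains Scap, and it is itself a known target of SREBP. Its level was 54.7 and 93.0 CPM with the KO label, 69.5 and 55.7 CPM with the Het label, 56.9 and 104 CPM with the WT label and 70.3 and 132 CPM with the SmoM2 label. Replicate 2 was far above replicate 1 in 3 groups, and the groups overlapped except for Het- and SmoM2-labelled libraries. The change between those was -0.69 on the log2 scale (SE 0.33, adjusted p = 0.132 in edgeR), and -0.12 between KO- and WT-labelled libraries (95% interval -0.85 to 0.62, adjusted p = 0.826). Insig1 had the largest standard error of the 7 genes in every pairwise comparison.

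**Figure D2:**
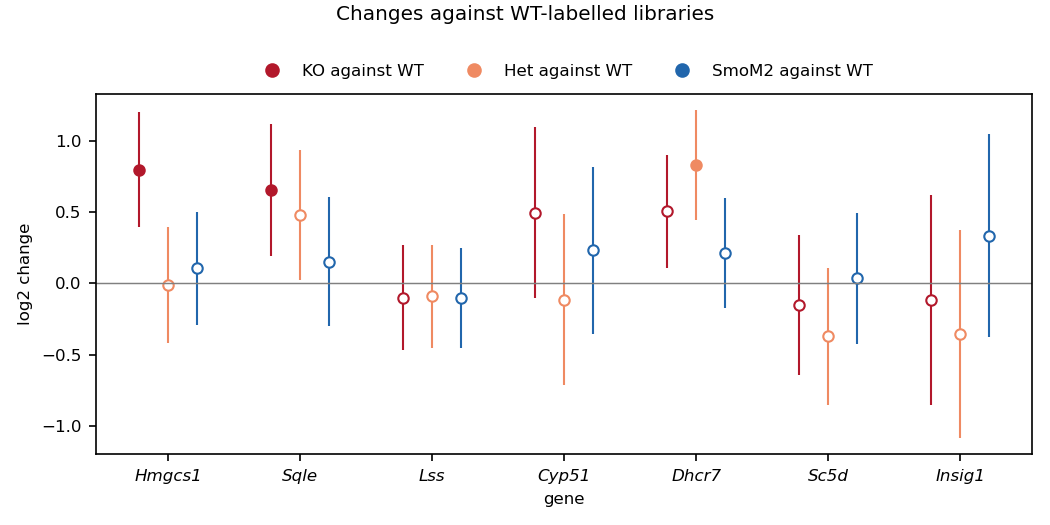
Log2 change of each of the 7 genes against the WT-labelled libraries, with 95% intervals from edgeR as bars. Filled points passed the adjusted threshold of 0.05. Hmgcs1 (0.80) and Sqle (0.65) in the KO-labelled and Dhcr7 (0.83) in the Het-labelled group are the filled points.

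The counts of calls stand beside the share of all tested genes called. Between KO- and WT-labelled libraries 2 of the 7 genes passed, both higher, and 23.0% of all tested genes did (11.6% higher, 11.4% lower). Between Het- and WT-labelled libraries 1 of 7 passed, with 25.3% of all genes (13.1% higher, 12.2% lower). Between SmoM2- and WT-labelled libraries 0 of 7 passed in edgeR, 0 had an unadjusted p under 0.05 and 0 passed in DESeq2, with 0.223% of all genes called. Between KO- and Het-labelled libraries 1 of 7 passed, with 9.43% of all genes (4.33% higher, 5.10% lower). Between KO- and SmoM2-labelled libraries 1 of 7 passed, with 32.5% of all genes (16.5% higher, 16.0% lower), and between Het- and SmoM2-labelled libraries 1 of 7, with 33.7% (16.9% higher, 16.7% lower). In the test over the 4 groups Hmgcs1 (adjusted p = 0.0101) and Dhcr7 (adjusted p = 0.0123) passed and Sqle did not (adjusted p = 0.0737 in edgeR), while 41.0% of all genes passed. These shares are near those of the 7 genes, so the number of calls is not a result about them. The median log2 change of the 7 was 0.49, -0.09 and 0.15 in the KO-, Het- and SmoM2-labelled groups against WT, and that of all tested genes was 0.03, -0.02 and 0.003. The comparisons with WT share its 2 libraries. As an alternative, the library totals that the deposited RPKM values imply replaced the scaled library sizes, with no further scaling. With these totals the share of higher genes among those called went from 45.9% to 64.7% between KO- and Het-labelled, from 50.7% to 62.8% between KO- and SmoM2-labelled and from 70.0% to 59.3% between SmoM2- and WT-labelled libraries. With DESeq2 this share went to 35.7% between KO- and Het-labelled ones.

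Levels of different genes can be compared only per length, in the authors' RPKM. Over the 8 libraries the mean RPKM was highest for Insig1 (24.5), followed by Sqle (16.6), Hmgcs1 (15.0), Dhcr7 (9.09), Cyp51 (7.98), Sc5d (5.76) and Lss (4.88). In the WT-labelled libraries Insig1 was at 24.6 ± 9.08 RPKM, Sqle at 13.0 ± 1.64 and Hmgcs1 at 12.5 ± 1.44 (SD, n = 2). Sqle and Hmgcs1, neighbours in this order, lay within their spread of each other, as did Cyp51 (7.03 ± 1.91), Dhcr7 (6.79 ± 1.07) and Sc5d (6.23 ± 0.725). Lss, at 5.13 ± 0.285 RPKM, had the lowest level of the 7 there. The longest gene model of the 7 is that of Lss, with 6329 bases in the table, and the shortest that of Sc5d, with 2249.

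The rest of the pathway was described from a list of 15 other enzymes, which opens with Acat2 at the pathway's entry. Together with the 6 enzymes among the 7 genes this gives 21. Between KO- and WT-labelled libraries 9 of the 21 were called higher and none lower, against 11.6% of all genes called higher. A positive change, called or not, was found for 17 of 21, and their median was 0.50 on the log2 scale against 0.03 for all genes. The 7 other enzymes called were Acat2, Pmvk, Mvd, Fdft1, Msmo1, Nsdhl and Ebp. The count was lower with each single library left out in turn, and so was the number of all genes called higher.

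Mvd, the decarboxylase that ends the mevalonate part, was at 67.1 and 64.0 CPM with the KO label, 57.9 and 49.1 CPM with the Het label, 36.4 and 34.7 CPM with the WT label and 34.5 and 38.8 CPM with the SmoM2 label. All 4 KO- and Het-labelled libraries lay above all 4 others. Its log2 change against WT was 0.88 with the KO label (SE 0.14, adjusted p = 0.0017 in edgeR) and 0.59 with the Het label (SE 0.14, adjusted p = 0.0104). The second was lost with thinned counts (0.46, adjusted p = 0.0549), without Het replicate 1 (0.43, adjusted p = 0.142) and without WT replicate 2 (0.53, adjusted p = 0.0652). Acat2, which joins acetyl-CoA units at the entry of the pathway, was at 47.2 and 52.5 CPM with the KO label and between 27.9 and 32.1 CPM in the other 6. Its change against WT was 0.75 on the log2 scale (SE 0.14, adjusted p = 0.0045 in edgeR). Fdft1, the squalene synthase, was at 46.3 and 47.9 CPM with the KO label and between 25.7 and 35.8 CPM in the other libraries, with a change against WT of 0.66 (SE 0.15, adjusted p = 0.0092; 0.59 and 0.0537 without WT replicate 2). Pmvk, a mevalonate pathway kinase, changed by 0.83 (SE 0.18, adjusted p = 0.0085), which was lost without KO replicate 1 (0.63, adjusted p = 0.0797) and without WT replicate 2 (0.65, adjusted p = 0.0574). Msmo1, a methylsterol oxidase, had the largest change of the 21, 1.13 (SE 0.27, adjusted p = 0.0135). It was at 15.7 and 23.7 CPM with the KO label, from 71 and 109 counts, and between 8.69 and 13.2 CPM in the other 6. It was chosen for mention after its values were seen, and its own change was not followed under the alternatives. Nsdhl and Ebp lie on the X chromosome.

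**Figure D3:**
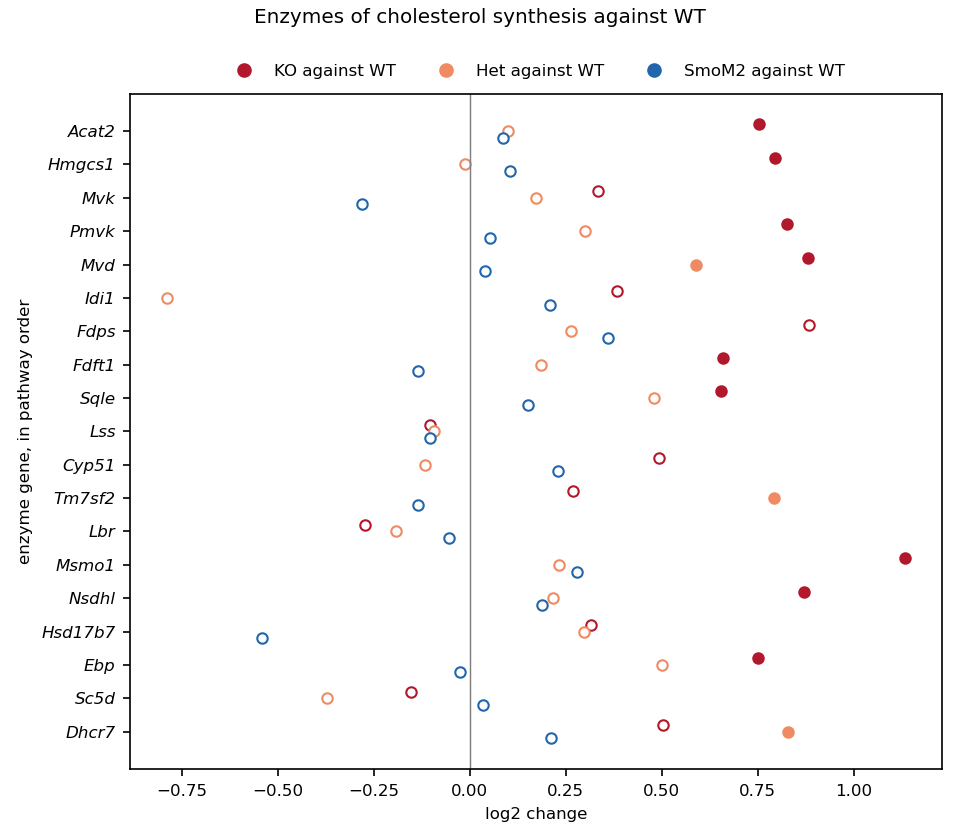
Log2 change of the cholesterol synthesis enzymes shown by name against the WT-labelled libraries, in pathway order from the entry at the top. Filled points passed the adjusted threshold of 0.05. In the KO-labelled group 9 points are filled, in the Het-labelled group 3 and in the SmoM2-labelled group none.

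In the Het-labelled libraries 3 of the 21 enzymes were called higher than in WT-labelled ones, Dhcr7, Mvd and Tm7sf2, and none lower, a share near the 13.1% of all genes called higher. Tm7sf2, a sterol reductase, was at 27.8 and 28.7 CPM with the Het label, 21.3 and 18.1 CPM with the KO label, 15.9 and 16.7 CPM with the WT label and 15.4 and 14.2 CPM with the SmoM2 label. Its order over groups was that of Dhcr7 in the KO-, Het- and WT-labelled means. The log2 change against WT was 0.79 (SE 0.18, adjusted p = 0.0084 in edgeR), which was lost with thinned counts (0.53, adjusted p = 0.0757), without Het replicate 1 (0.78, adjusted p = 0.0547) and without Het replicate 2 (0.75, adjusted p = 0.0620). Fewer of the 21 were called higher without Het replicate 1 or Het replicate 2, where fewer of all genes were called higher too. Between KO- and Het-labelled libraries 2 of 21 were called higher, Hmgcs1 and Acat2 (0.65, adjusted p = 0.0219), against 4.33% of all genes. The Acat2 call was lost with length trends removed (0.55, adjusted p = 0.0564) and on leaving out each of the 4 libraries compared in turn, with adjusted p between 0.0521 and 0.162. Between KO- and SmoM2-labelled libraries 9 of 21 were called higher, against 16.5% of all genes, and between Het- and SmoM2-labelled libraries 4 of 21 were, a share near the 16.9% of all genes. The first count was lower without SmoM2 replicate 1, KO replicate 1 or KO replicate 2. The second was lower without Het replicate 1, Het replicate 2 or SmoM2 replicate 1. In each of these fits fewer of all genes were called higher too. Between SmoM2- and WT-labelled libraries 0 of 21 passed in edgeR, where 1 had an unadjusted p under 0.05, and 0 passed in DESeq2.

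Other measures moved with these groups. The summed level of 10 dissociation stress genes, such as Fos, was 4073 to 5946 CPM with the KO label, 7943 to 7987 with the Het label, 2881 to 3026 with the WT label and 3282 to 4708 with the SmoM2 label. Of these 10 genes, 5 were called higher in KO-labelled and 7 in Het-labelled than in WT-labelled libraries. In these comparisons 11.6% and 13.1% of all tested genes were called higher, and 11.4% and 12.2% lower. The same shares stand beside the marker counts that follow. The summed level of 7 markers of differentiating nephrons, such as Lhx1 and Pax8, was 1005 to 1229 CPM with the KO label, 495 to 713 with the Het label, 462 to 560 with the WT label and 380 to 494 with the SmoM2 label, and 4 of the 6 tested were called higher in KO- than in WT-labelled libraries. The 6 proliferation genes summed to 868 to 1255 CPM with the KO label and 799 to 1023 CPM with the WT label, with 2 called higher, and to 1009 to 1032 and 888 to 947 CPM with the Het and SmoM2 labels. The 6 erythroid markers summed to 13.7 to 45.2 CPM with the KO label, 19.9 to 24.9 with the Het label, 4.10 to 5.23 with the WT label and 2.77 to 7.87 with the SmoM2 label. The 6 immune markers summed to 14.2 to 23.7, 46.2 to 48.0, 29.7 to 31.7 and 26.9 to 32.6 CPM in the same order of groups. The 7 ureteric bud and collecting duct markers summed to 2.83 to 5.54 CPM with the KO label, 2.54 to 2.72 with the Het label, 13.1 to 14.4 with the WT label and 27.8 to 39.3 with the SmoM2 label, with Gata3, Wnt9b and Aqp2 at 3 counts or fewer in each library. Of the 3 tested, 2 were called lower in KO- than in WT-labelled libraries and 1 was called lower in Het- than in WT-labelled ones. Between SmoM2- and WT-labelled libraries 1 was called higher, where 0.223% of all genes were called. The 7 stroma markers summed to 285 to 440 CPM with the KO label, 315 to 377 with the Het label, 285 to 427 with the WT label and 446 to 567 with the SmoM2 label. In KO- against WT-labelled libraries 2 of these 7 were called higher and 1 lower, with log2 changes of the 7 from -4.48 to 2.68, and in Het- against WT-labelled libraries 2 were called higher and 1 lower, from -3.30 to 2.89. The 6 endothelial markers summed to at most 3.40 CPM. The nephron progenitor sums given above were also higher in all 4 KO- and Het-labelled libraries than in the 4 others. The part of these cells and states in the sterol gene results was not tested.

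Control and transport genes of the SREBP2 branch come next. Of 12 listed genes 11 were tested, and 1 was called higher and 1 lower between KO- and WT-labelled libraries, where 11.6% of all genes were called higher and 11.4% lower, and again between Het- and WT-labelled ones, where 13.1% and 12.2% were. These counts are near the shares of all genes, so they are not a result about the list. Scap, the escort of SREBP, was at 211 and 201 CPM with the Het label and between 134 and 152 CPM in the other 6. Its Het-labelled change against WT was 0.44 on the log2 scale (SE 0.11, adjusted p = 0.0141 in edgeR), a call that was lost on leaving out each of the 4 libraries compared in turn, with adjusted p between 0.0545 and 0.135. Stard4, a sterol carrier and SREBP target, was at 16.4 and 26.6 CPM with the KO label and between 11.3 and 14.5 CPM in the other 6. Its change against WT was 0.79 (adjusted p = 0.0446), and the call was lost on leaving out each library but KO replicate 1, with adjusted p from 0.0578 to 0.342, the last without KO replicate 2 (0.39). It was also lost with DESeq2 (0.0612), relative log expression scaling (0.0508), only the groups compared (0.0641) and thinned counts (0.0615). Mbtps1, a protease that cuts SREBP, was lower in KO-labelled than in WT-labelled libraries by -0.40 (adjusted p = 0.0361), which was lost without KO replicate 1 (0.154), KO replicate 2 (0.0673) or WT replicate 1 (0.142), and with the RPKM totals (0.0660), only the groups compared (0.0683) or length trends removed (0.0914). Its Het-labelled change against WT was -0.36 (adjusted p = 0.0498), a call that was lost in 11 of 18 alternatives. Between KO- and Het-labelled libraries 2 of the 11 were called lower, Scap (-0.49, adjusted p = 0.0243) and the lysosomal cholesterol exporter Npc1 (-0.59, adjusted p = 0.0369), and both calls were lost on leaving out each of the 4 libraries compared, with adjusted p from 0.0599 to 0.177. With length trends removed Scap was at adjusted p = 0.0547 and Npc1 at 0.0876, and Scap was also lost with sex as a covariate (0.0806) and Npc1 with the RPKM totals (0.0739). Scarb1, a receptor for high-density lipoprotein, was lower in KO- and Het-labelled than in SmoM2-labelled libraries by -1.15 (adjusted p = 0.0078) and -1.26 (adjusted p = 0.0040). The first of these calls was lost without KO replicate 2 (-0.97, adjusted p = 0.0643).

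The LXR targets Abca1 and Abcg1 had the largest changes against WT among the sterol and lipid genes named here. Abca1 (chromosome 4, 53030787 to 53159895, minus strand), the exporter that hands cholesterol to apolipoproteins, was at 11.7 and 14.6 CPM with the KO label, 16.6 and 16.6 CPM with the Het label, 121 and 83.1 CPM with the WT label and 172 and 106 CPM with the SmoM2 label. The highest KO- or Het-labelled value was far below the lowest value of the other groups. The WT-labelled level was 7.77-fold the KO-labelled and 6.16-fold the Het-labelled level, log2 changes of -2.96 (SE 0.27, adjusted p = 0.0001 in edgeR) and -2.62 (SE 0.25, adjusted p = 0.0001). Abcg1, which exports cholesterol to high-density lipoprotein, was at 1.99 and 3.48 CPM with the KO label, 3.88 and 3.06 CPM with the Het label, 15.0 and 11.8 CPM with the WT label and 23.5 and 21.8 CPM with the SmoM2 label. It changed by -2.28 (SE 0.31, adjusted p = 0.0008) and -1.93 (SE 0.28, adjusted p = 0.0010) in KO- and Het-labelled libraries against WT. The calls of Abca1 held under every alternative and left-out library run, and those of Abcg1 under each one in which it was tested. With at least 10 counts required in every library, Abcg1 was not tested. The summed ureteric bud and collecting duct markers, given above, were also lowest with the KO and Het labels and highest with the SmoM2 label, and their part in these changes was not tested. Mylip, a ubiquitin ligase and LXR target, was at 108 and 96.9 CPM with the KO label, 97.8 and 100.6 CPM with the Het label, 132 and 168 CPM with the WT label and 167 and 195 CPM with the SmoM2 label. Its changes against WT were -0.55 (adjusted p = 0.0202) and -0.59 (adjusted p = 0.0126). The first was lost without KO replicate 1 (adjusted p = 0.0571), KO replicate 2 (0.0909) or WT replicate 2 (0.113), and the second without Het replicate 1 (0.0717), Het replicate 2 (0.0659) or WT replicate 2 (0.0813).

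**Figure D4:**
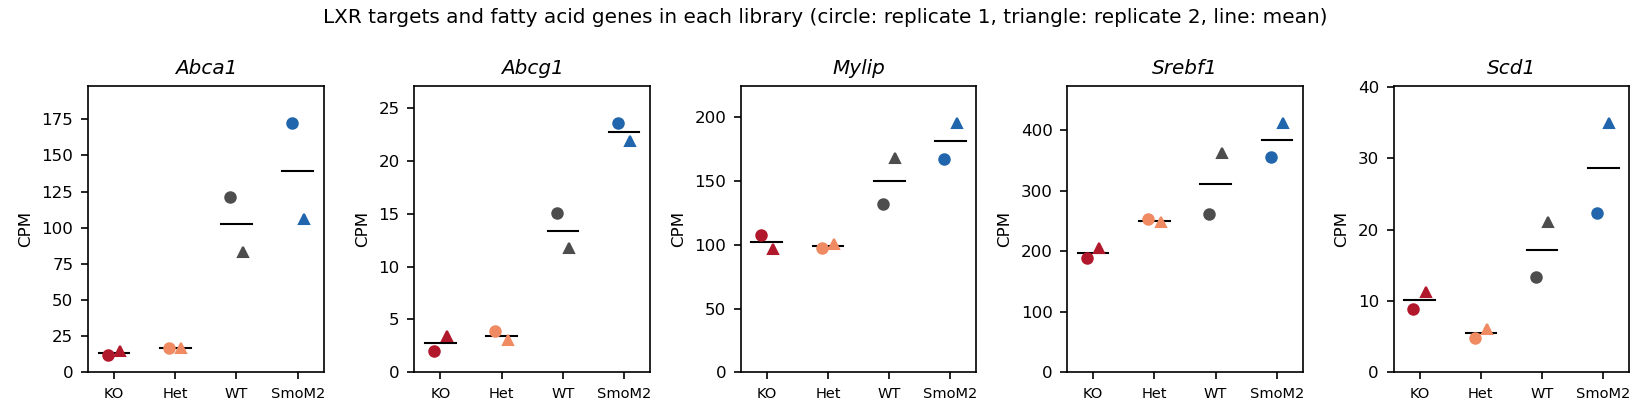
Level of Abca1, Abcg1, Mylip, Srebf1 and Scd1 in each library, in CPM on linear axes from 0, by labelled genotype. Circles are replicate 1, triangles replicate 2 and lines the mean of 2 libraries. The KO- and Het-labelled libraries lie below the WT- and SmoM2-labelled ones in each panel.

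Few other genes of the LXR list passed. Of 11 listed genes 10 were tested, and 3 were called lower between KO- and WT-labelled libraries (Abca1, Abcg1 and Mylip) against 11.4% of all genes called lower. Between Het- and WT-labelled libraries 4 were called lower, against 12.2%. The fourth was Apoe, a lipoprotein component, with -0.80 (adjusted p = 0.0145 in edgeR), lost without Het replicate 1 (0.0797), Het replicate 2 (0.0625) or WT replicate 2 (0.0689). The median of the 10 was -0.22 and -0.62 on the log2 scale in these comparisons. Between KO- and Het-labelled libraries 0 of 10 passed in edgeR, 0 had an unadjusted p under 0.05 and 0 passed in DESeq2. Between SmoM2- and WT-labelled libraries 0 of 10 passed in edgeR or in DESeq2 and 1 had an unadjusted p under 0.05: Abcg1, with 0.76 (95% interval 0.25 to 1.27, adjusted p = 0.340). Its SmoM2-labelled libraries both lay above its WT-labelled ones. Soat1, which esterifies cholesterol, was higher in Het- than in SmoM2-labelled libraries (0.75, adjusted p = 0.0060), lost without Het replicate 2 (0.0610) or SmoM2 replicate 1 (0.0562).

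Fatty acid synthesis is the branch under SREBP1. Of its 9 genes 2 were called lower and none higher between KO- and WT-labelled libraries, where 11.4% of all genes were called lower, and the median change was -0.30 on the log2 scale. Srebf1, the gene for SREBP1 and itself an LXR target, was at 188 and 206 CPM with the KO label, 254 and 248 CPM with the Het label, 261 and 363 CPM with the WT label and 356 and 412 CPM with the SmoM2 label. Its KO-labelled change against WT was -0.66 (SE 0.16, adjusted p = 0.0127 in edgeR), lost without KO replicate 1 (-0.60, adjusted p = 0.0899) or WT replicate 2 (-0.44, adjusted p = 0.0724). Acaca, the carboxylase that commits acetyl-CoA to fatty acids, changed by -0.64 (adjusted p = 0.0191), but by -0.23 with length trends removed (adjusted p = 0.320). Without KO replicate 1 or WT replicate 2 its adjusted p was 0.140 and 0.108. Scd1, a desaturase, was at 8.86 and 11.3 CPM with the KO label, 4.81 and 6.11 CPM with the Het label, 13.3 and 21.0 CPM with the WT label and 22.3 and 34.9 CPM with the SmoM2 label, with a Het-labelled change against WT of -1.66 (SE 0.32, adjusted p = 0.0040). Between KO- and SmoM2-labelled libraries 5 of the 9 were called lower, against 16.0% of all genes, and 0 of 9 passed in edgeR or in DESeq2 between SmoM2- and WT-labelled libraries, with 2 at an unadjusted p under 0.05.

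The 2 libraries of a group often differed for these genes. For Insig1 replicate 2 was 1.70-fold replicate 1 with the KO label, 0.802-fold with the Het label, 1.82-fold with the WT label and 1.87-fold with the SmoM2 label, from log2 CPM with a prior count of 2, as for all ratios here. For Cyp51 the ratios were 1.42, 1.00, 1.57 and 1.73. Replicate 2 exceeded replicate 1 by at least 1.5-fold for 1 of the 7 genes with the KO label, 0 with the Het label, 2 with the WT label and 3 with the SmoM2 label, against 7.21%, 7.08%, 5.39% and 3.89% of all tested genes. The median ratio of the 7 was 1.37, 0.990, 1.16 and 1.39, where that of all genes was 0.992, 1.00, 1.00 and 1.00. Idi1, an isomerase of the synthesis pathway chosen for mention after its values were seen, had ratios of 1.49, 0.706, 1.43 and 1.61 in the same order of groups. Sex differed between the replicates in the WT- and SmoM2-labelled groups and not in the KO- and Het-labelled ones. The KO-labelled pair, both male, showed ratios above 1 for 6 of the 7 genes. In the KO-labelled pair the stress sum was also higher in replicate 2 (5946 against 4073 CPM), as it was in the SmoM2-labelled pair (4708 against 3282 CPM), while the WT-labelled pair had 3026 against 2881 CPM. The part of sex or stress in these ratios was not tested.

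**Figure D5:**
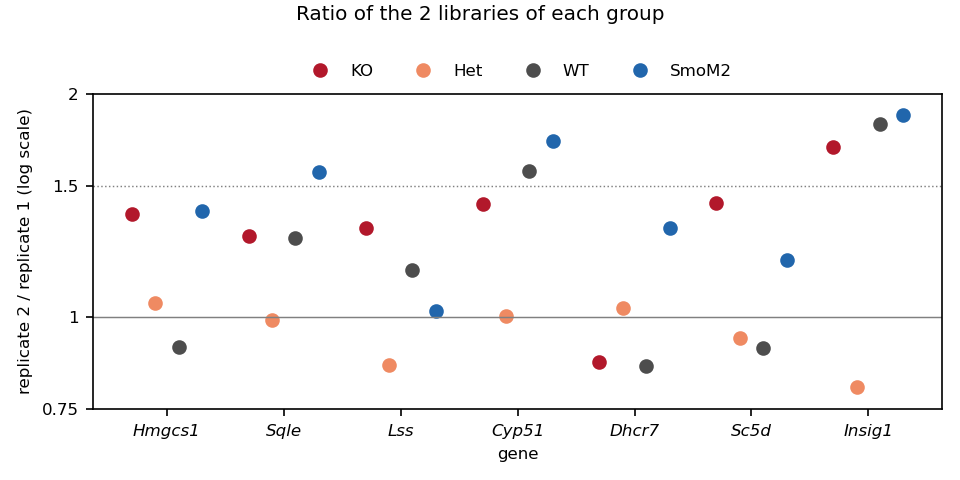
Ratio of replicate 2 to replicate 1 for each of the 7 genes and each labelled genotype, from log2 CPM with a prior count of 2, on a log axis. The dotted line marks 1.5-fold. Insig1 is above it in the KO-, WT- and SmoM2-labelled groups (1.70, 1.82 and 1.87) and below 1 with the Het label (0.802).

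A profile common to the 7 genes was made by scaling the log2 CPM of each over the 8 libraries and averaging them. It was highest in KO replicate 2 (1.10 SD) and SmoM2 replicate 2 (0.67) and lowest in SmoM2 replicate 1 (-0.66) and WT replicate 1 (-0.57). Cyp51 was the most typical member, with Pearson r = 0.87 over the 8 libraries to the average of the other 6. The values were 0.64 for Sqle, 0.59 for Insig1, 0.59 for Hmgcs1, 0.34 for Lss, 0.27 for Sc5d and -0.12 for Dhcr7, the single negative value. The 4 tested genes outside all lists whose profile was most like the average were Smc1a (r = 0.96), Cd24a (0.94), Zbtb8os (0.94) and Fggy (0.92). These are descriptions over 8 libraries that share groups and scaling, picked as the highest of all tested genes. Smc1a, a cohesin subunit gene, ran only from 161 to 199 CPM and Cd24a, a surface glycoprotein gene, from 367 to 484 CPM over the 8 libraries, a narrower relative range than that of Hmgcs1 or Insig1.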

How the data were processed

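Polyadenylated RNA of sorted nephron progenitors was sequenced in 8 libraries. Per the file headers, the authors deposited raw read counts per gene, a gene length and RPKM values in a single table. STAR, featureCounts, Subread and mm10 are named in the submitters' processing notes. Their versions, the annotation and the strand setting are not given in the sources used here, so overlapping antisense genes cannot be told apart. Gene coordinates come from GENCODE vM21 and promoters from RefSeq, both of GRCm38, the assembly called mm10. The listed counts made up 81.1% to 83.3% of the totals that the deposited RPKM values imply.

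The labels gave groups and replicate numbers. Counts were filtered with filterByExpr, scaled by TMM and fitted with edgeR 4.0.16 in R 4.3.3, with a mean for each group over all 8 libraries and 4 residual degrees of freedom, for 6 pairwise comparisons and a test over the 4 groups. The biological coefficient of variation was 13.5%. Each standard error was derived from the log2 change and its F statistic. Log2 CPM used a prior count of 2. Exact permutation tests of 2 against 2 libraries cannot go below a two-sided p of 0.333, so none is reported. The procedure was run on counts simulated with the spread of its own fit, so the run checks the computation and not that spread. The recovery of small changes is not reported here. Alternatives were DESeq2 1.42.0, other scalings and filters, thinned counts, embryo sex as a covariate, the replicate number as a block, removal of length trends, a fit on the compared groups alone, and leaving out each library.

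The members and lists were chosen with earlier results of these data known. All 7 members are named. Of each other list at most 5 genes are given with values, those called in most pairwise comparisons, with ties broken by the smallest p over the 4 groups, and exceptions are named as such. The 4 most similar genes are those with the highest Pearson r to the members' average. Some genes of the lists are counted in the totals but are not reported here by name.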

Additional observations from a re-analysis of the deposited data

How the results depend on the processing

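The 6 calls of members kept their direction under all 18 alternatives each, and 90 of 108 values also stayed past the threshold. Of the 36 uncalled member results, 21 of 648 values passed under an alternative and 61 changed sign without a call. Among 50 calls of other named genes, 782 of 896 values stayed past the threshold, 113 kept their direction without passing and 1 changed sign without passing. The cause of the changes given here was not tested. Fasn, lower in KO- than in SmoM2-labelled libraries by -0.38 on the log2 scale, was at 0.0925 with length trends removed.

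Genes called between SmoM2- and WT-labelled libraries numbered 30, and 82 with DESeq2, 356 without the filter, 8 with only the groups compared, 54 with the replicate block, 54 with sex as a covariate and 15 with thinned counts. Between KO- and Het-labelled libraries 1269 genes were called, 2217 without the filter and 613 with length trends removed, where 36.7% of the calls were higher. Members called between KO- and WT-labelled libraries went from 2 to 1 with relative log expression scaling, thinned counts or length trends removed. They went to 3 with sex and to 3 without the filter, where Cyp51 passed (0.47, adjusted p = 0.0305 in edgeR). Between Het- and WT-labelled libraries they went from 1 to 2 without the filter, with only the groups compared, with the replicate block and with sex. Between KO- and Het-labelled libraries they went from 1 to 2 without the filter and to 3 with sex. Between KO- and SmoM2-labelled libraries they went from 1 to 2 with the RPKM totals or the replicate block and to 3 without the filter or with sex. Between Het- and SmoM2-labelled libraries they went from 1 to 2 without the filter and to 3 with sex. Synthesis enzymes called higher went from 3 to 1 between Het- and WT-labelled libraries with thinned counts, and from 2 to 4 with the RPKM totals, 7 without the filter, 7 with sex and 1 with length trends removed between KO- and Het-labelled ones.

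Leaving out a library leaves its group with 1, which is then assumed to vary like the others. This gave 1304 to 2924 genes between KO- and WT-labelled libraries, 1401 to 3615 between Het and WT, 8 to 81 between SmoM2 and WT, 36 to 1472 between KO and Het, 2423 to 4440 between KO and SmoM2, 2409 to 4732 between Het and SmoM2, and 3656 to 5510 over the 4 groups. Members called ranged from 0 to 2, 1 to 1, 0 to 0, 0 to 1, 0 to 2 and 0 to 2 in the same order of pairs, and synthesis enzymes called higher from 5 to 7, 1 to 3, 0 to 0, 0 to 2, 4 to 9 and 1 to 4.

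The labels do not say that replicate numbers pair libraries. The correlation of same-numbered deviations was 0.39 between SmoM2 and WT and between -0.06 and 0.10 in the other pairs. With the replicate block, Sqle passed between Het and WT (0.50, adjusted p = 0.0348 in edgeR) and between KO and SmoM2 (0.52, adjusted p = 0.0266), and no called member was lost. With sex as a covariate, Cyp51 changed by 1.34 (adjusted p = 0.0123 in edgeR) and Insig1 by 1.12 (adjusted p = 0.0416) between KO and Het. Without the covariate these changes were 0.61 and 0.24. Cyp51 changed by 0.68 (adjusted p = 0.0198) between KO and SmoM2 and by -0.66 (adjusted p = 0.0166) between Het and SmoM2. Insig1 changed by -1.06 (adjusted p = 0.0051) between Het and SmoM2. The sex term is set by the WT and SmoM2 groups alone, where sex and replicate number cannot be told apart. For both genes replicate 2 was also above replicate 1 in the all-male KO pair (1.42- and 1.70-fold). The RPKM totals moved the median of all genes to 0.14 on the log2 scale between KO and SmoM2. The KO-labelled libraries had the lowest totals, so small changes of the lowest gene, Sc5d, with 57 and 83 counts there, may not have been detectable.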
